A study of Mus musculus with 8 samples.

Results

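The expressed long noncoding RNAs of 4T1 cells are described here, as 163 genes chosen from the 16341 genes of the deposited count table. A gene was chosen when the GENCODE mouse annotation gave it a long noncoding class (lincRNA, antisense, processed_transcript, sense_intronic or bidirectional_promoter_lncRNA), when it lay on an autosome, and when its mean normalized count over all 8 libraries was at least 20. Of 741 genes of these classes in the table, 714 were autosomal and 163 reached that level. The last value was read from the same libraries that are compared below, so the level of the members is part of how they were chosen. The members just inside the limit were 4921531C22Rik, Gm10069 and Ttc39aos1, with means of 20.2, 20.7 and 20.9, and the genes just outside it were 2810001G20Rik, Ptprv and Airn, with means of 19.2, 19.6 and 19.8. By class, 65 members were processed_transcript genes, 47 lincRNAs, 38 antisense RNAs, 12 bidirectional promoter RNAs and 1, Peg13, a sense intronic RNA.

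4T1 is a mouse mammary carcinoma line of BALB/c origin that forms metastatic tumors. The Ly6a gene encodes the surface protein SCA1. RNA was sequenced from cells separated by magnetic columns into a fraction that carried SCA1 (4T1-Sca1+) and a fraction that did not (4T1-Sca1-), with 4 libraries of each, numbered 1 to 4. Both fractions were gated as CD45-, without the leukocyte surface protein. The source label and the study's text give the parental 4T1 line as the starting material, although the extraction text mentions tumor that was stained. No genotype, treatment, age or host was given for either group. Whether the 4 libraries of a group came from separate sorts is not stated either, and the p-values below then measure the spread between these libraries, which may be technical. The sorted populations were bulk samples, so a change in the share of cells that hold an RNA and a change in the RNA per cell cannot be told apart.

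Long noncoding RNAs are transcribed and spliced much like messenger RNAs but are not translated into a known protein. Some are structural, as Neat1 is for the nuclear bodies called paraspeckles, some act on genes beside them, some carry small nucleolar RNAs (snoRNAs) or microRNAs in their introns, and many have no described function. Those that start beside a protein-coding gene on the opposite strand often share its promoter region, and those that overlap a gene on the opposite strand can be separated from it in sequencing only when the library keeps track of strand.

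The libraries held 13561804 to 16968215 counts each, and 0.352% to 0.399% of them fell on members. The Ly6a transcript was counted, normalized, at 167 ± 20.2 in 4T1-Sca1+ and 1.79 ± 1.73 in 4T1-Sca1- cells (SD, n = 4 in each group here and below), so the label of each group matches the sorted protein's transcript. Of 9 epithelial markers tested, 2 were higher and 5 lower in 4T1-Sca1+ cells, where 31.3% of all tested genes were higher and 30.2% lower. Krt8 and Krt18 were higher, Krt8 at means of 13673 in 4T1-Sca1+ and 11093 in 4T1-Sca1- cells. Cdh1, Cldn3, Cldn4, Krt7 and Krt14 were lower, Cdh1 at 3264 and 5301 and Cldn4 at 4014 and 6237. Epcam, at 3128 and 3222, and Krt19 were not called. Krt5, at 0.742 and 0, was not tested. Of 19 leukocyte markers 12 were counted, their summed normalized count ran from 1087 to 1148 in 4T1-Sca1+ and from 1056 to 1169 in 4T1-Sca1- libraries, and the defining markers Ptprc and Lyz2 had means of at most 2.32 and 0. Of the 4 leukocyte markers tested, Csf1r, Cd68 and Cd74 were higher in 4T1-Sca1+ cells and Cd14 was lower. Cd14 made up most of these sums, at means of 703 in 4T1-Sca1+ and 865 in 4T1-Sca1- cells. Cd68 had 236 and 152, Cd74 125 and 65.5, and Csf1r 39.8 and 17.8. Of 10 fibroblast markers 7 were counted, with sums of 635 to 671 and 395 to 468, of which Pdgfra made up 560.2 and 364; Col1a1 had 47.6 and 28.6 and Dcn 11.4 and 1.06. Of 8 endothelial markers 7 were counted, at sums of 34.7 to 43.9 and 42.3 to 66.2, and the 1 tested was lower. The part of these differences in the results below was not tested. 4T1-Sca1+ replicate 3 stood apart from its group: the chi-square per degree of freedom between it and the other 4T1-Sca1+ libraries was 7.09 to 10.2, against 1.92 to 5.70 for the other pairs within a group.

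Between the sorted groups, the expressed long noncoding RNAs were more often called higher than lower, least clearly among the most abundant. All 163 members passed the filter on low counts and were tested among 11717 genes with edgeR's quasi-likelihood test, and a member was called at a Benjamini-Hochberg adjusted p under 0.05. Of the members, 63 (38.7%) were called higher and 25 (15.3%) lower in 4T1-Sca1+ cells, where 31.3% of all tested genes were called higher and 30.2% lower. The remaining 75 (46.0%) were not called, and 61.5% of all tested genes were called in either direction. These shares of all tested genes are the background for the counts of called genes given below. The median log2 fold change of the members, 4T1-Sca1+ over 4T1-Sca1- here and throughout, was 0.14, and that of all tested genes was 0.0074. The members had a median normalized count of 67.3, far below the 571 of all tested genes, so the 2 sets of calls were made at different precision. For autosomal protein-coding genes with a mean of at least 20, which number 10496, the shares were 31.0% higher and 32.0% lower, with a median of -0.0037.

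Because a mean over both groups was used to choose the members, a gene could enter through its higher group alone. There were 10 members with a mean of at least 20 in 4T1-Sca1+ cells only, of which 9 were called higher: B230312C02Rik, Fam120aos, Gm15417, 5430405H02Rik, Ttc39aos1, Gm11944, Sp3os, B230208H11Rik and C4a. Where their folds and p-values are given below they are descriptions, since such members had to differ. There was 1 member that reached it in 4T1-Sca1- cells only, which was not called. Among the 152 members at 20 or more in both groups, 54 (35.5%) were higher and 25 (16.4%) lower. Most changes were small, since 49 of the 88 called members changed by less than 1.5-fold. Of the 163 members, 9 were called and at least 2-fold higher, a share near the 5.22% of all tested genes. Among these were B230312C02Rik, Fam120aos, Gm15417 and 5430405H02Rik, which entered through their 4T1-Sca1+ level alone. There was 1 member called and at least 2-fold lower, against 0.879% of all tested genes. The 4 libraries of one group lay wholly above or below those of the other for 74 members (45.4%), against 54.7% of all tested genes. The call was the same in all 18 other fits for 69 of the 88 called members, and 54 of the 75 uncalled ones were called in no fit.

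**Figure D1:**
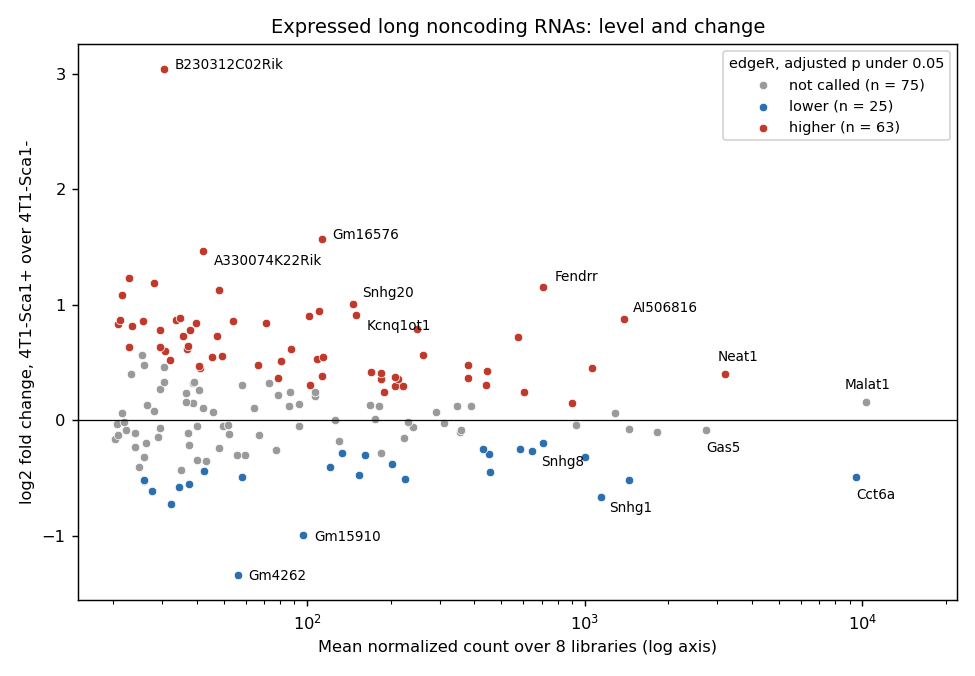
Mean normalized count over the 8 libraries (horizontal, log axis) against the log2 fold change of 4T1-Sca1+ over 4T1-Sca1- (vertical) for the 163 members, one point each, colored by the edgeR call. Called members lie on both sides of 0 at every level, 63 above it and 25 below, and B230312C02Rik at 3.04 and Gm4262 at -1.34 are the ends of the range.

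The calls are given by level. At means of 20 to 50, 27 of 71 members were higher and 6 lower (38.0% and 8.45%, median log2 fold change 0.26). At 50 to 200 the counts were 19 and 7 of 48 (39.6% and 14.6%, median 0.22). At 200 or more they were 17 and 12 of 44 (38.6% and 27.3%, median 0.019). The shares of all tested genes were 31.3% and 30.2%, so the skew was smallest among the most abundant members. The 10 members that entered through their 4T1-Sca1+ level alone, 9 of them called higher, had a median normalized count of 23.0. They lie in the first range, so part of the skew there was set by how the members were chosen. Coding genes of matched level were not set beside the members. The coefficient of variation between replicates was also largest for the weakest members, with medians of 19.97% (4T1-Sca1+) and 18.2% (4T1-Sca1-) in the first of these ranges and of 7.27% and 6.87% in the last. The total signal was dominated by few genes. Malat1, Cct6a, Neat1, Gas5 and 1110038B12Rik held 48.3% of the summed normalized counts of the members, and Malat1 alone 18.1%.

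B230312C02Rik, a lincRNA of chromosome 2 (chr2:180370491-180385885, GRCm38, minus strand) for which no function is known to be described, had the largest log2 fold change of the 163. Its normalized counts were 55.8, 51.3, 57.9 and 53.4 in the 4T1-Sca1+ libraries and 6.69, 10.3, 7.79 and 1.14 in the 4T1-Sca1- libraries. Every 4T1-Sca1+ library was therefore several times above every 4T1-Sca1- library. The log2 fold change was 3.04 ± 0.27 (SE here and below), at an edgeR adjusted p of 3.18e-08, and the low 4T1-Sca1- counts make its size imprecise: it ran from 2.72 to 3.34 as each library was left out. B230312C02Rik entered the set through its 4T1-Sca1+ level alone, as the mean of 6.47 in 4T1-Sca1- cells was under 20.

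Next came a pair of RNAs that start beside the start of a coding gene on the opposite strand. Gm16576 had 153, 157, 185 and 179 in the 4T1-Sca1+ libraries and 49.7, 72.9, 40.1 and 66.2 in the 4T1-Sca1- libraries, and the groups did not overlap (log2 fold change 1.57 ± 0.14, edgeR adjusted p 4.65e-08). Its neighbour is Sun2, which encodes a protein of the inner nuclear membrane. A330074K22Rik, whose neighbour is Gse1, had 45.7, 68.04, 63.8 and 69.1 in the 4T1-Sca1+ libraries and 18.1, 25.7, 22.3 and 23.97 in the 4T1-Sca1- libraries, again with no overlap (1.47 ± 0.19, edgeR adjusted p 2.80e-06). Fam120aos, divergent from Fam120a, had 32.01 ± 5.34 in 4T1-Sca1+ and 13.7 ± 3.06 in 4T1-Sca1- cells (1.23 ± 0.23, edgeR adjusted p 1.48e-04). Gm15417, antisense to the transcription factor gene Zbtb7b, had 38.7 ± 11.2 in 4T1-Sca1+ and 17.2 ± 4.29 in 4T1-Sca1- cells (1.18 ± 0.25, edgeR adjusted p 4.81e-04). Fam120aos and Gm15417 were under 20 in 4T1-Sca1- cells and entered the set through their 4T1-Sca1+ level alone.

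Among the other members of the 10 that rose furthest, 4T1-Sca1+ replicate 3 was the highest library for Snhg20, 9330151L19Rik and 5430405H02Rik. Snhg20, a lincRNA with a snoRNA gene inside it, had 168, 167, 277 and 169 in the 4T1-Sca1+ libraries and 104, 99.6, 95.7 and 90.2 in the 4T1-Sca1- libraries. The groups did not overlap, but replicate 3 stood well above the other 4T1-Sca1+ libraries, and the log2 fold change of 1.01 ± 0.15 (edgeR adjusted p 2.01e-05) became 0.79 (edgeR adjusted p 1.54e-07) without it. 9330151L19Rik, which overlaps Dnaaf2 on the opposite strand over 43.5% of its exon length, had 65.9 ± 11.4 in 4T1-Sca1+ and 30.5 ± 4.82 in 4T1-Sca1- cells (1.12 ± 0.17, edgeR adjusted p 1.95e-05). 5430405H02Rik, 56.4% of whose exons lie antisense to Tgif2, had 29.2 ± 11.4 in 4T1-Sca1+ and 13.7 ± 2.98 in 4T1-Sca1- cells (1.09 ± 0.28, edgeR adjusted p 0.00297), and without replicate 3 its log2 fold change was 0.795. 5430405H02Rik also entered through its 4T1-Sca1+ level alone, and 9.91% of its 50-base words occur in genes elsewhere, mostly Tgif2-ps2. In all 3 the lowest 4T1-Sca1+ library was above the highest 4T1-Sca1- library. 9530082P21Rik, antisense to Flywch1 and Kremen2 over 26.2% of its exons, had 145 ± 11.9 in 4T1-Sca1+ and 76.2 ± 8.89 in 4T1-Sca1- cells (0.94 ± 0.11, edgeR adjusted p 1.37e-06).

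AI506816 was not among these 10 and is given because its adjusted p was the second smallest of all members, a choice made after its values were seen. It is a processed_transcript gene of chromosome 5 with no role known to be described. Its normalized counts were 1829.8, 1801, 1743 and 1794 in the 4T1-Sca1+ libraries and 915, 932, 1065 and 1031 in the 4T1-Sca1- libraries, so that the groups were far apart relative to the spread within them. The log2 fold change was 0.88 ± 0.054 (edgeR adjusted p 3.06e-10). Of the 50-base words of its transcripts, 10.7% occur in transcripts of genes elsewhere, so its reads may be shared in part.

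The lower members fell less far. Gm4262, a lincRNA of chromosome 16 (chr16:11008898-11015186, plus strand), had 31.99, 24.7, 37.9 and 31.5 in the 4T1-Sca1+ libraries and 76.4, 77.00, 86.8 and 83.3 in the 4T1-Sca1- libraries. The highest 4T1-Sca1+ library was under the lowest 4T1-Sca1- library by more than the whole range of either group, with a log2 fold change of -1.34 ± 0.15 (edgeR adjusted p 5.19e-07). Its reads may be shared with other genes in part, since 12.4% of the 50-base words of its transcripts occur in transcripts of genes elsewhere, mostly Zfp706. Gm15910, classed as antisense, had 69.5, 71.99, 55.9 and 58.6 in the 4T1-Sca1+ libraries and 117, 132, 121 and 147 in the 4T1-Sca1- libraries and did not overlap between groups either (-0.998 ± 0.12, edgeR adjusted p 1.80e-06). 8430423G03Rik had 24.1 ± 1.81 in 4T1-Sca1+ and 40.6 ± 5.05 in 4T1-Sca1- cells (-0.73 ± 0.18, edgeR adjusted p 0.00157).

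The other weakly expressed members among the 10 that fell furthest were nearer the limit of the test. C630043F03Rik, which starts divergently from the corepressor gene Tle1, had 30.2 ± 3.73 in 4T1-Sca1+ and 44.7 ± 7.19 in 4T1-Sca1- cells (-0.56 ± 0.17, edgeR adjusted p 0.0106). 2810029C07Rik, divergent from Mark3, had 21.6 ± 6.36 in 4T1-Sca1+ and 33.8 ± 2.87 in 4T1-Sca1- cells (-0.61 ± 0.21, edgeR adjusted p 0.0183), and the call was lost without 4T1-Sca1+ replicate 2 (adjusted p 0.063). A830082K12Rik, which overlaps the nuclear receptor gene Nr2f1, had 27.3 ± 7.20 in 4T1-Sca1+ and 41.8 ± 9.39 in 4T1-Sca1- cells with overlapping groups (-0.58 ± 0.21, edgeR adjusted p 0.0255). Its call was lost without 4T1-Sca1+ replicate 1, without 4T1-Sca1+ replicate 3 or without 4T1-Sca1- replicate 4, at edgeR adjusted p values of 0.0603, 0.0641 and 0.108. 2500002B13Rik, divergent from Sap30, had 21.1 ± 4.64 in 4T1-Sca1+ and 30.7 ± 4.21 in 4T1-Sca1- cells (-0.52 ± 0.21, edgeR adjusted p 0.0393). Its call was lost in 5 of the 8 fits that left out a library, those without replicate 1 or 3 of 4T1-Sca1+ and without replicate 1, 3 or 4 of 4T1-Sca1-, where the edgeR adjusted p ran from 0.0538 to 0.119. The other members of the 10, Snhg1, 2410006H16Rik and Ptgs2os, are described with their families below.

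**Figure D2:**
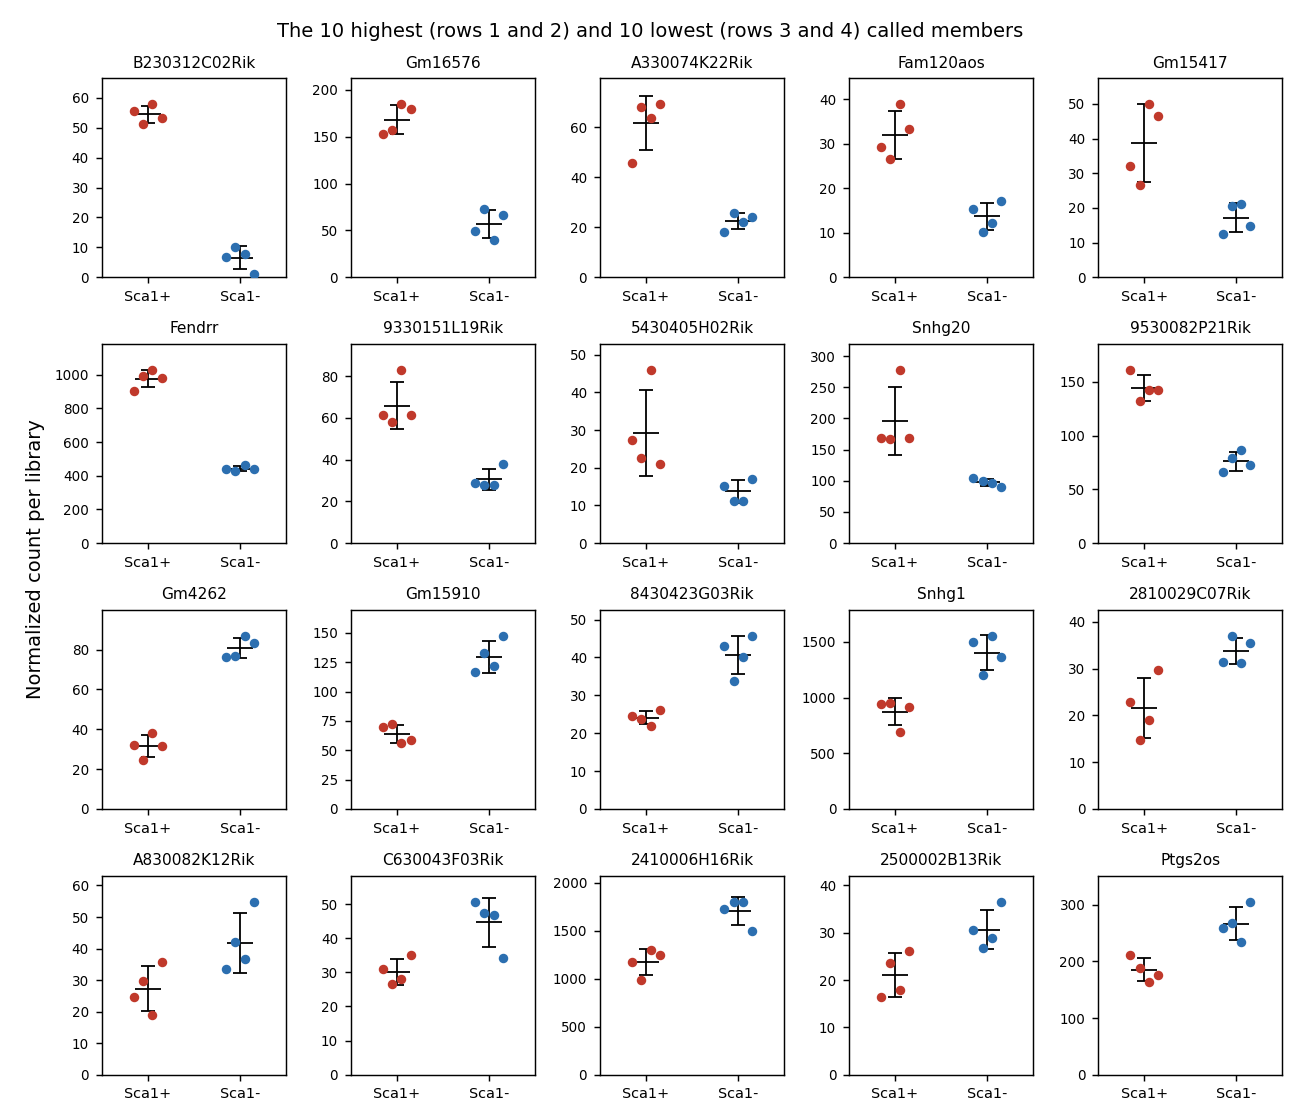
Normalized count in each library (points), with the mean and SD of the 4 libraries of each group (bars), for the 10 highest (upper rows) and 10 lowest (lower rows) called members, each on its own axis from 0. Groups are fully separated in 18 of the 20 panels, the exceptions being A830082K12Rik and C630043F03Rik. The panels were chosen by these same values, so this separation is a description, and groups did not overlap for 54.7% of all tested genes. The single high point in the Snhg20 panel is 4T1-Sca1+ replicate 3 at 277.

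Among abundant long noncoding RNAs with described roles, 13 of those listed were counted and 9 were members. Of the 9, 5 were higher and none was lower, where 31.3% of all tested genes were called higher and 30.2% lower. Malat1, which collects in nuclear speckles, had 9249.5, 11178, 10459 and 12492 in the 4T1-Sca1+ libraries and 8266, 9489, 12812 and 8688 in the 4T1-Sca1- libraries. The groups overlapped broadly and the difference was not called (log2 fold change 0.16 ± 0.11, edgeR adjusted p 0.214), but 4T1-Sca1- replicate 3 held the highest value of all 8, and without it the log2 fold change was 0.31 (edgeR adjusted p 0.00321). Neat1, the scaffold of paraspeckles, had 3209, 3588, 3886 and 3781 in the 4T1-Sca1+ libraries and 2388, 2553, 3223 and 2879.9 in the 4T1-Sca1- libraries. It was called higher at 0.40 ± 0.077 (edgeR adjusted p 2.17e-04), although the highest 4T1-Sca1- library, again replicate 3, was just above the lowest 4T1-Sca1+ library. Malat1 and Neat1 lie next to each other on chromosome 19 and are both known as nuclear.

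The cytoplasmic RNA 2900097C17Rik, named Norad in RefSeq, binds the Pumilio proteins that repress messenger RNAs. It had 1241, 1289, 1199.9 and 1170.1 in the 4T1-Sca1+ libraries and 976, 879.9, 859 and 907 in the 4T1-Sca1- libraries, with no overlap (0.45 ± 0.054, edgeR adjusted p 1.39e-06), while 39.5% of its 50-base words also occur in Gm7292, so reads of the 2 genes may have been split between them. 1700020I14Rik, named Oip5os1 in RefSeq and also known as Cyrano, carries a site that directs the decay of miR-7, and it had 483 ± 30.4 in 4T1-Sca1+ and 395 ± 20.4 in 4T1-Sca1- cells (0.30 ± 0.066, edgeR adjusted p 7.15e-04). Gm14005, or Morrbid, is known for restraining the apoptosis gene Bcl2l11 in myeloid cells, and it had 233 ± 7.71 in 4T1-Sca1+ and 181 ± 15.3 in 4T1-Sca1- cells (0.38 ± 0.083, edgeR adjusted p 7.39e-04). These 3 RNAs rose with the groups fully apart.

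The other listed members of this kind were not called. Tug1 had 1301 ± 123 in 4T1-Sca1+ and 1259.7 ± 61.96 in 4T1-Sca1- cells (0.059 ± 0.063, edgeR adjusted p 0.434), and Pvt1, which neighbours Myc, had 347 ± 15.8 in 4T1-Sca1+ and 372 ± 9.89 in 4T1-Sca1- cells (-0.089 ± 0.064, edgeR adjusted p 0.24). 1810026B05Rik, named Chaserr in RefSeq and known to limit its neighbour Chd2, had 114 ± 7.42 in 4T1-Sca1+ and 98.99 ± 17.6 in 4T1-Sca1- cells (0.21 ± 0.12, edgeR adjusted p 0.142), and its 4T1-Sca1- mean was raised by replicate 1 at 125, without which the log2 fold change was 0.34 (edgeR adjusted p 0.0166).

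Proteins of paraspeckles, listed because they assemble on Neat1, did not move in one direction. Of 24 tested, 8 were higher and 8 lower, with a median log2 fold change of 0.056. Both shares were near the 31.3% and 30.2% of all tested genes called higher and lower. Among the core proteins, Sfpq was higher (0.18 ± 0.044), Nono was not called (0.082 ± 0.044, edgeR adjusted p 0.116) and Pspc1 was lower (-0.61 ± 0.046, edgeR adjusted p 3.96e-09).

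**Figure D3:**
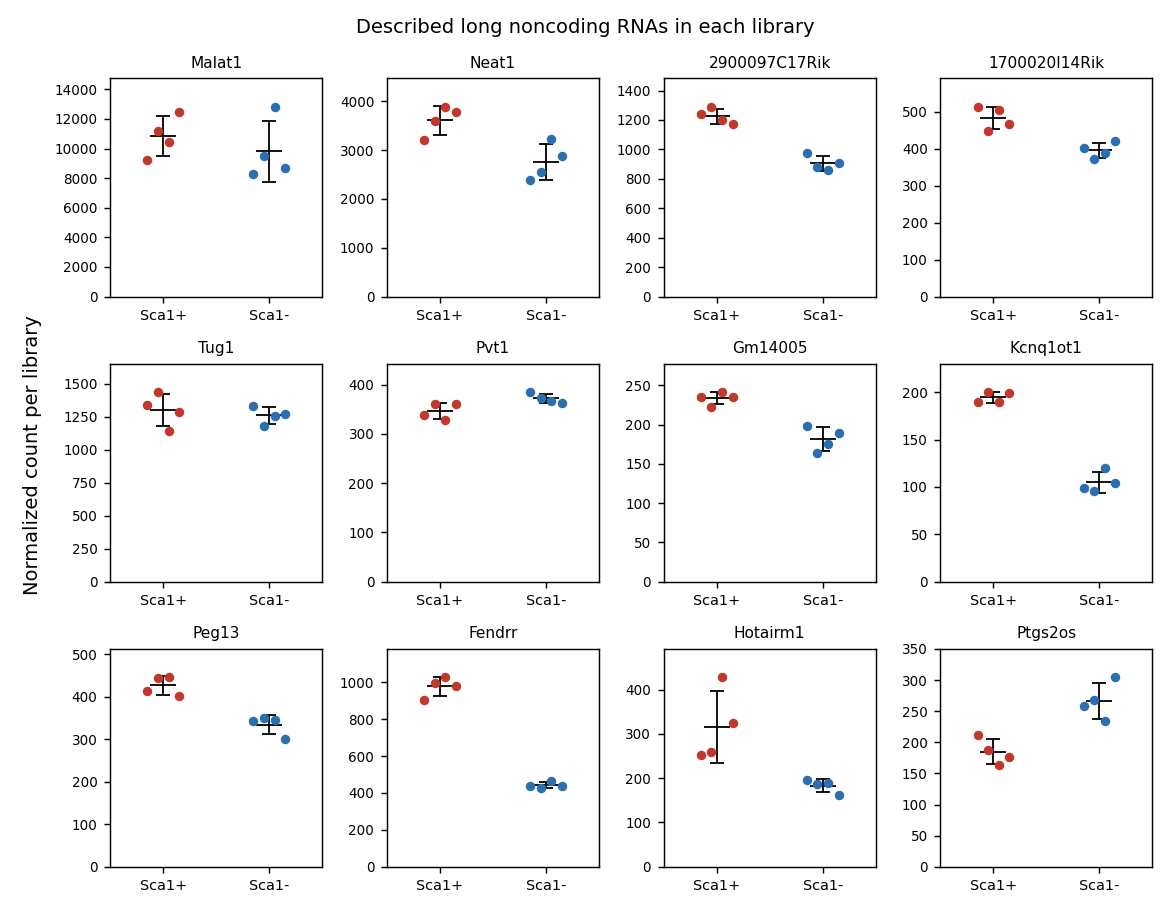
Normalized count per library (points) with mean and SD of 4 libraries per group (bars) for 12 described long noncoding RNAs, each on its own axis from 0. Fendrr and Kcnq1ot1 are the most widely separated, Ptgs2os is lower in 4T1-Sca1+ libraries, and Malat1 and Tug1 overlap.

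Both imprinted RNAs among the members were higher in 4T1-Sca1+ cells. Kcnq1ot1, which silences genes around Kcnq1 on the chromosome inherited from the father, had 189, 200.2, 189.5 and 199.5 in the 4T1-Sca1+ libraries and 99.3, 95.5, 120.2 and 104 in the 4T1-Sca1- libraries. The groups did not overlap (0.91 ± 0.095, edgeR adjusted p 2.54e-07). Kcnq1 itself, on the opposite strand, had 14.8 ± 3.97 and 2.37 ± 2.17 (log2 fold change 2.59 ± 0.48, edgeR adjusted p 1.60e-04). Its low counts make the size of that change imprecise. Exons of Kcnq1 overlap 0.13% of the length of Kcnq1ot1. The kit does not mark strand, so any unspliced Kcnq1 reads within Kcnq1ot1 could not be told apart from it, and their part was not tested. Peg13, expressed from an intron of Trappc9, had 427 ± 22.2 in 4T1-Sca1+ and 334 ± 22.8 in 4T1-Sca1- cells (0.36 ± 0.069, edgeR adjusted p 1.95e-04). Airn, just under the level limit, was the third imprinted RNA tested and was also called higher (0.62 ± 0.24, edgeR adjusted p 0.032).

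Of the 6 members listed for development or inflammation, 4 were higher and 2 lower. Fendrr, a developmental RNA of the lateral mesoderm that lies beside the forkhead gene Foxf1, had 906, 995, 1027 and 981 in the 4T1-Sca1+ libraries and 438, 427, 464 and 438 in the 4T1-Sca1- libraries. It had the smallest adjusted p of all members, and the groups were far apart (1.16 ± 0.058, edgeR adjusted p 1.64e-11). Hotairm1, from the HOXA cluster, had 253, 258, 428 and 325 in the 4T1-Sca1+ libraries and 197, 186, 189 and 161 in the 4T1-Sca1- libraries. Its lowest 4T1-Sca1+ library was above the highest 4T1-Sca1- library, and the log2 fold change of 0.79 ± 0.14 (edgeR adjusted p 7.60e-05) was 0.62 without 4T1-Sca1+ replicate 3. Hoxaas2, of the same cluster, had 50.8 ± 3.71 in 4T1-Sca1+ and 28.6 ± 2.80 in 4T1-Sca1- cells (0.85 ± 0.16, edgeR adjusted p 1.73e-04), and Ttc39aos1 had 26.8 ± 5.31 in 4T1-Sca1+ and 14.9 ± 2.20 in 4T1-Sca1- cells (0.83 ± 0.23, edgeR adjusted p 0.00412), the latter a member through its 4T1-Sca1+ level alone.

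The 2 lower RNAs lie on either side of Ptgs2, which encodes the inducible cyclooxygenase COX-2. Ptgs2os had 211, 188, 164 and 177 in the 4T1-Sca1+ libraries and 259, 268, 235 and 305 in the 4T1-Sca1- libraries, and its groups did not overlap (-0.51 ± 0.096, edgeR adjusted p 1.82e-04). Ptgs2os2, also called lincRNA-Cox2 and known as a regulator of inflammatory genes in macrophages, had 175 ± 12.4 in 4T1-Sca1+ and 229 ± 14.3 in 4T1-Sca1- cells (-0.38 ± 0.085, edgeR adjusted p 9.30e-04). Ptgs2 was lower as well, at -0.67 ± 0.060 (edgeR adjusted p 3.94e-08), with 13397 ± 1275 in 4T1-Sca1+ and 21478 ± 1069 in 4T1-Sca1- cells.

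The promoters of 3 members that changed together with a divergent coding gene are shown, for Gm16576 and Ptgs2os because the window also holds the start of the neighbour, and for Fendrr because it had the smallest adjusted p of all members. They were taken from RefSeq (build GRCm38.p6), which gave a promoter window for 127 of the 163 members, and are written 5′ to 3′ on the strand of the RNA, with the 50 transcribed bases after its start in capitals. The windows are chr8:121083061-121083360, minus strand, for Fendrr, chr15:79742448-79742747, plus strand, for Gm16576, and chr1:150099825-150100124, minus strand, for Ptgs2os. The RefSeq start of Gm16576 lies 162 bp from the nearest start of Sun2 and that of Ptgs2os 157 bp from that of Ptgs2, so each of these windows covers both starts. The start of Foxf1 lies farther off, 1276 bp from that of Fendrr by GENCODE.
Fendrr: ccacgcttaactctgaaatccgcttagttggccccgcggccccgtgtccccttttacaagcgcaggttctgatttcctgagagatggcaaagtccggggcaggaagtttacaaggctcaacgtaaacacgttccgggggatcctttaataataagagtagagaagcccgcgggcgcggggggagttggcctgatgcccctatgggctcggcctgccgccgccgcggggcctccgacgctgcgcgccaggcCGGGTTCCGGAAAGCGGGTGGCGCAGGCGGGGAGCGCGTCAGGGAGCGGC
Gm16576: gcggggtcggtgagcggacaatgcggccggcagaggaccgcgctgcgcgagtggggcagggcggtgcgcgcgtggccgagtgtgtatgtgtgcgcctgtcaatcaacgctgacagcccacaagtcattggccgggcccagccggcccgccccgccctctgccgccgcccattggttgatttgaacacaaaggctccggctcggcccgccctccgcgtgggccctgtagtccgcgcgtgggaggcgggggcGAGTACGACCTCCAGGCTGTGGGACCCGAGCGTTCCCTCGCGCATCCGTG
Ptgs2os: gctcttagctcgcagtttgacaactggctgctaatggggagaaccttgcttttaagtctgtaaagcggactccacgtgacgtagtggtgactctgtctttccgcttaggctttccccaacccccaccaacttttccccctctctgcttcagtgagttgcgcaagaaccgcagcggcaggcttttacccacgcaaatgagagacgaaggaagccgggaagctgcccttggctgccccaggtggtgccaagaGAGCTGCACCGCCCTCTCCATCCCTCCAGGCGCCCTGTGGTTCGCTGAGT

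Small nucleolar RNAs guide the chemical modification of ribosomal and other RNAs and are cut out of the introns of host genes, whose spliced transcripts are often unstable. GENCODE places 49 snoRNA or scaRNA genes within 19 members, on the same strand. Of these hosts, 5 (26.3%) were higher, 6 (31.6%) lower and 8 not called, shares near the 31.3% and 30.2% of all tested genes, with a median log2 fold change of -0.0853. The 144 other members had 58 higher and 19 lower and a median of 0.16. Of small RNA hosts listed by name, 14 were tested, with 5 higher and 4 lower, and the 12 of them that were members had 4 higher and 4 lower. The snoRNAs themselves were largely outside these data: 17 of the 49 genes were counted, the highest at a mean normalized count of 47.4.

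Among the lower hosts, Snhg1, with 8 snoRNA genes, had 941, 952, 695 and 912 in the 4T1-Sca1+ libraries and 1502, 1203, 1553 and 1362 in the 4T1-Sca1- libraries. The highest 4T1-Sca1+ library was below the lowest 4T1-Sca1- library (-0.67 ± 0.090, edgeR adjusted p 5.11e-06), and without 4T1-Sca1+ replicate 3, the lowest of all, the log2 fold change was -0.58. 2410006H16Rik, with 3 snoRNA genes, had 1174, 988, 1299.7 and 1244 in the 4T1-Sca1+ libraries and 1729, 1799.8, 1800.0 and 1494 in the 4T1-Sca1- libraries, likewise without overlap (-0.52 ± 0.074, edgeR adjusted p 9.28e-06). Cct6a had 8297, 7995, 7177 and 7823 in the 4T1-Sca1+ libraries and 11370.3, 10704, 11104 and 11323 in the 4T1-Sca1- libraries and was lower with the groups far apart (-0.50 ± 0.048, edgeR adjusted p 1.01e-07). GENCODE classes Cct6a as a processed_transcript gene, but RefSeq lists it as the coding gene of a subunit of the cytosolic chaperonin, so it is a long noncoding RNA by the annotation rule only.

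Smaller decreases were seen in 3 further hosts. Snhg5 had 885 ± 73.5 in 4T1-Sca1+ and 1113 ± 84.2 in 4T1-Sca1- cells (-0.32 ± 0.067, edgeR adjusted p 5.51e-04). Of its 50-base words, 10.4% occur in genes elsewhere, mostly 9330159M07Rik. 1810032O08Rik, which is Snhg16 in RefSeq, had 403 ± 35.3 in 4T1-Sca1+ and 498 ± 35.3 in 4T1-Sca1- cells (-0.30 ± 0.074, edgeR adjusted p 0.00209). Snhg8, with 1 snoRNA gene, had 583 ± 46.1 in 4T1-Sca1+ and 708 ± 53.04 in 4T1-Sca1- cells (-0.27 ± 0.069, edgeR adjusted p 0.00251). None of the 3 overlapped between groups. Gas5, the growth-arrest transcript with 10 such genes, had 2731, 2667, 2402 and 2766 in the 4T1-Sca1+ libraries and 2791, 2504, 3150.2 and 2872 in the 4T1-Sca1- libraries and was not called (-0.085 ± 0.063, edgeR adjusted p 0.254). Also not called were Snhg3 (-0.16 ± 0.082, edgeR adjusted p 0.102), Snhg12 (-0.10 ± 0.082, edgeR adjusted p 0.279), 1110038B12Rik (-0.11 ± 0.053, edgeR adjusted p 0.087) and Dancr (0.32 ± 0.15, edgeR adjusted p 0.0784). Calls were gained when 1 library was left out, for 1110038B12Rik at -0.15 without 4T1-Sca1+ replicate 3 and for Dancr at 0.38 without 4T1-Sca1+ replicate 2. Gas5 was called lower without 4T1-Sca1- replicate 2, at -0.15.

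Higher hosts were Snhg20 and AI506816, given above, Rab26os (0.64 ± 0.18, edgeR adjusted p 0.0048) and 2 further genes. These were Snhg6 with 209 ± 14.6 in 4T1-Sca1+ and 159 ± 18.3 in 4T1-Sca1- cells (0.41 ± 0.096, edgeR adjusted p 0.0012) and Snhg17 with 944 ± 20.6 in 4T1-Sca1+ and 862 ± 44.3 in 4T1-Sca1- cells (0.14 ± 0.052, edgeR adjusted p 0.0223). The change of Snhg17 was slight, and its call was lost without 4T1-Sca1+ replicate 4 or without 4T1-Sca1- replicate 2 or 4, at adjusted p values of 0.0608, 0.0616 and 0.0934. Each higher host but Snhg17 holds a single small RNA gene. That of AI506816 is Mir3096, named as a microRNA but classed by GENCODE with the snoRNA and scaRNA genes. The same holds for Mir1839, the single such gene of 2900076A07Rik, and for Mir5117 in Gas5.

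**Figure D4:**
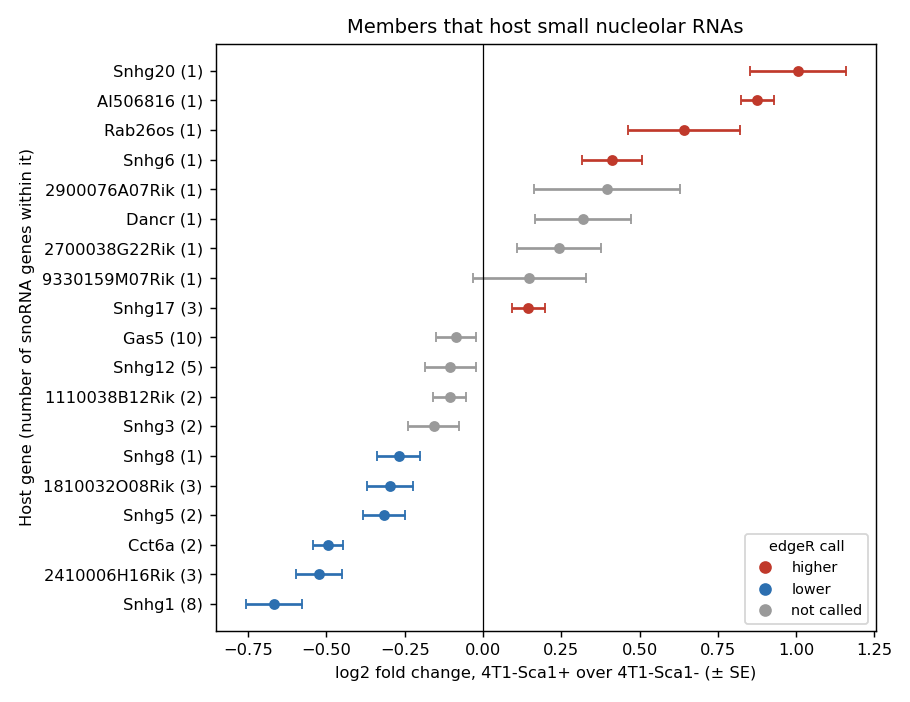
Log2 fold change of 4T1-Sca1+ over 4T1-Sca1- (horizontal, point ± SE) for the 19 members that host snoRNA genes, ordered by fold change and colored by the edgeR call, with the number of snoRNA genes in each host in brackets. The 6 lower hosts run from Snhg1 at -0.67 to Snhg8 at -0.27, and the 5 higher ones from Snhg17 at 0.14 to Snhg20 at 1.01.

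Most genes for proteins that bind snoRNAs were lower in 4T1-Sca1+ cells. Of 14 snoRNP core protein and assembly genes tested, 11 were lower, none was higher, and the median log2 fold change was -0.32. Among all tested genes, 30.2% were called lower and 31.3% higher. Of the box C/D proteins, Nop58 was at -0.53 ± 0.071 (edgeR adjusted p 5.55e-06), Nop56 at -0.38 ± 0.048 and the methylase Fbl at -0.33 ± 0.062. Of the box H/ACA proteins, the pseudouridine synthase Dkc1 was at -0.51 ± 0.058 (edgeR adjusted p 6.39e-07). Nolc1, a nucleolar chaperone of snoRNPs, fell furthest, by 0.73 on the log2 scale (edgeR adjusted p 3.97e-10).

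RNA decay factors were more often lower than higher, while 30.2% of all tested genes were called lower and 31.3% higher. Nonsense-mediated decay is known to clear spliced snoRNA host RNAs, and of its 18 factors tested 2 were higher and 12 lower, with a median of -0.18. The exceptions were Upf3a at 0.30 ± 0.049 and Dhx34 at 0.65 ± 0.089, and the central helicase Upf1 was not called (0.097 ± 0.056, edgeR adjusted p 0.142). Of 18 factors of nuclear RNA decay, which removes many promoter-associated RNAs, 3 were higher and 9 lower, with a median of -0.18, among them the exosome nuclease Dis3 at -0.52 ± 0.059 and the helicase Mtrex at -0.27 ± 0.067.

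The first transcribed bases of snoRNA hosts often hold a run of pyrimidines that is known from genes of the translation machinery. Only windows that hold the run are shown, for some hosts that changed and some that did not. RefSeq promoter windows were found for 18 of the 19 hosts. A run was counted where a C was followed by at least 4 further C or T bases and began between 5 bases before and 10 bases after a start, at any start of the gene. It was present in 12 of the 18 hosts (66.7%), in 30.3% of the 109 other members with a window and in 27.7% of 27025 genes. It was found in 4 of 6 lower, 2 of 4 higher and 6 of 8 uncalled hosts, numbers too small to compare. No run was found for Snhg1 and Cct6a (lower), Snhg20 and Snhg17 (higher) or Dancr and 2900076A07Rik (not called), whose windows are not shown. Each sequence below starts 10 bases before the RefSeq start (GRCm38.p6, 5′ to 3′ on the strand of the host), with the run in capitals. They lie at chr11:62602867-62602916, plus strand (2410006H16Rik, lower), chr3:123508297-123508346, minus strand (Snhg8, lower), chr17:24528241-24528290, plus strand (Rab26os, higher), chr5:23712628-23712677, minus strand (AI506816, higher), chr1:161035156-161035205, plus strand (Gas5, not called), chr4:132308668-132308717, plus strand (Snhg12, not called) and chr5:23850587-23850636, plus strand (2700038G22Rik, not called).
2410006H16Rik: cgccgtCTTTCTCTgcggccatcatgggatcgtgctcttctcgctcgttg
Snhg8: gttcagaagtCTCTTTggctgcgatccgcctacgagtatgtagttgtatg
Rab26os: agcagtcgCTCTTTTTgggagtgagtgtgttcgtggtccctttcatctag
AI506816: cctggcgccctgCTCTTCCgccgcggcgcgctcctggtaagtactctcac
Gas5: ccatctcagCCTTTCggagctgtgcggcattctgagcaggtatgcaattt
Snhg12: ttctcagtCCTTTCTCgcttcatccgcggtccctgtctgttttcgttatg
2700038G22Rik: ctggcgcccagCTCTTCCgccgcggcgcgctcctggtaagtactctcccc

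The windows of AI506816 and 2700038G22Rik hold the same pyrimidine run, and the bases after it are the same nearly to the end of the windows. The runs of these 2 hosts are therefore not separate cases. Both genes lie on chromosome 5, on opposite strands. 2700038G22Rik had 93.9 ± 10.98 in 4T1-Sca1+ and 80.3 ± 12.4 in 4T1-Sca1- cells and was not called (0.24 ± 0.13, edgeR adjusted p 0.123). Over the whole transcripts, 1.94% of the 50-base words of 2700038G22Rik occur in AI506816.

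Mir22hg, the host of miR-22, was the member that carries a well-known microRNA. It had 74.03, 82.8, 66.8 and 84.9 in the 4T1-Sca1+ libraries and 56.3, 55.4, 64.6 and 46.8 in the 4T1-Sca1- libraries, with no overlap (0.48 ± 0.14, edgeR adjusted p 0.00555). The 2 arms of the microRNA are shown because they are the products the host is known for, although these libraries do not measure mature microRNAs. They lie at chr11:75463734-75463755, plus strand, and at chr11:75463772-75463793, plus strand (RefSeq, GRCm38.p6), and capitals mark the seed, bases 2 to 8.
mmu-miR-22-5p: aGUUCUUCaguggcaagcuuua
mmu-miR-22-3p: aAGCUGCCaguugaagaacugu

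Of 12 microRNA processing factors tested, 7 were higher and 3 lower, against 31.3% and 30.2% of all tested genes. The lower ones were Drosha at -0.17 ± 0.044, its partner Dgcr8 at -0.19 ± 0.060 and the nuclear exporter Xpo5 at -0.45 ± 0.057 (edgeR adjusted p 2.89e-06), and among the higher ones the Argonaute genes Ago1, Ago2 and Ago3 were at 0.49 ± 0.053, 0.20 ± 0.044 and 0.42 ± 0.071. The helicases Ddx17 and Ddx5, which work with Drosha in the nucleus, were higher as well, at 0.81 ± 0.046 (edgeR adjusted p 9.70e-11) and 0.13 ± 0.048 (edgeR adjusted p 0.0279).

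Compared per kilobase of exon, the most abundant members were Cct6a, 2410006H16Rik, Malat1, 1110038B12Rik, Snhg8, Gas5, Ifi30, Snhg5, 3300005D01Rik and Snhg1. Their mean normalized counts per kilobase, over all 8 libraries, ran from 384 for Snhg1 to 3119 for 2410006H16Rik. For comparison, Neat1 was at 153 and Kcnq1ot1 at 1.61, the latter over an annotated length of 93092 bases. Of the 10, 7 host snoRNAs. Of the others, 3300005D01Rik was lower with 654 ± 26.8 in 4T1-Sca1+ and 758 ± 37.7 in 4T1-Sca1- cells (-0.20 ± 0.057, edgeR adjusted p 0.00567). Ifi30, another gene that RefSeq lists as coding, encodes a lysosomal thiol reductase used in antigen processing, and it was higher with 651 ± 48.3 in 4T1-Sca1+ and 554 ± 23.3 in 4T1-Sca1- cells (0.25 ± 0.064, edgeR adjusted p 0.00288), with a slight overlap between groups.

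Members were set beside neighbouring genes to see whether they moved together. Each was paired with a counted protein-coding gene that overlapped its exons on the opposite strand. Failing that, it was paired with the annotated protein-coding gene whose start lay nearest to its own, within 5 kb on either strand. A pair made by start was called divergent when the strands were opposite, without a check that the genes point away from each other. There were 37 members with a divergent neighbour, which was tested for 35. Across these pairs the log2 fold changes had a Pearson r of 0.52 and a Spearman rho of 0.39, and where both genes were called, 8 pairs changed in the same direction and 3 in opposite directions. Genes are not independent replicates and all values come from the same 8 libraries, so these correlations are descriptions.

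The 8 concordant divergent pairs included those named above. Foxf1 had 559.8 ± 61.4 and 294 ± 16.8, a log2 fold change of 0.94 ± 0.079 beside 1.16 for Fendrr. Sun2 was at 0.58 ± 0.056 beside 1.57 for Gm16576, Gse1 at 0.43 ± 0.065 beside 1.47 for A330074K22Rik, and Ttc39a at 0.71 ± 0.11 beside 0.83 for Ttc39aos1. The steepest neighbour was Pik3r2, a regulatory subunit of PI3 kinase, at 1.06 ± 0.071 beside 0.53 for 2010320M18Rik. Discordant pairs were Fam120aos with Fam120a at -0.22 ± 0.043, 4933421O10Rik at 0.52 with Ube2j1 at -0.25 ± 0.045, and 2610306M01Rik at -0.44 with Aak1 at 0.13 ± 0.045. Snhg1 fell while its divergent neighbour Slc3a2, the heavy chain of amino acid transporters, was not called (0.060 ± 0.042, edgeR adjusted p 0.233).

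Pairs that overlap on opposite strands are harder to read. There were 61, with the partner tested in 58, a Pearson r of 0.37 and a Spearman rho of 0.38. Both genes were called in 19 pairs, 14 in the same and 5 in opposite directions. The library kit does not mark strand and strand handling in the counting is not given, so reads from the shared stretch cannot be assigned to either gene, and agreement within such a pair may come from shared reads in part, which was not tested. The pairs called in opposite directions were A830082K12Rik at -0.58 with Nr2f1 at 0.83 ± 0.070, 1810032O08Rik at -0.30 with St6galnac2 at 0.75 ± 0.14, Ptpmt1 at -0.25 with Kbtbd4 at 0.47 ± 0.068, Lppos at 0.64 with Lpp at -0.37 ± 0.062, and 2310009A05Rik at 0.47 with Pigb at -0.26 ± 0.080. In the HOXA cluster, Hoxaas2 rose with its partner Hoxa3 (0.61 ± 0.082).

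**Figure D5:**
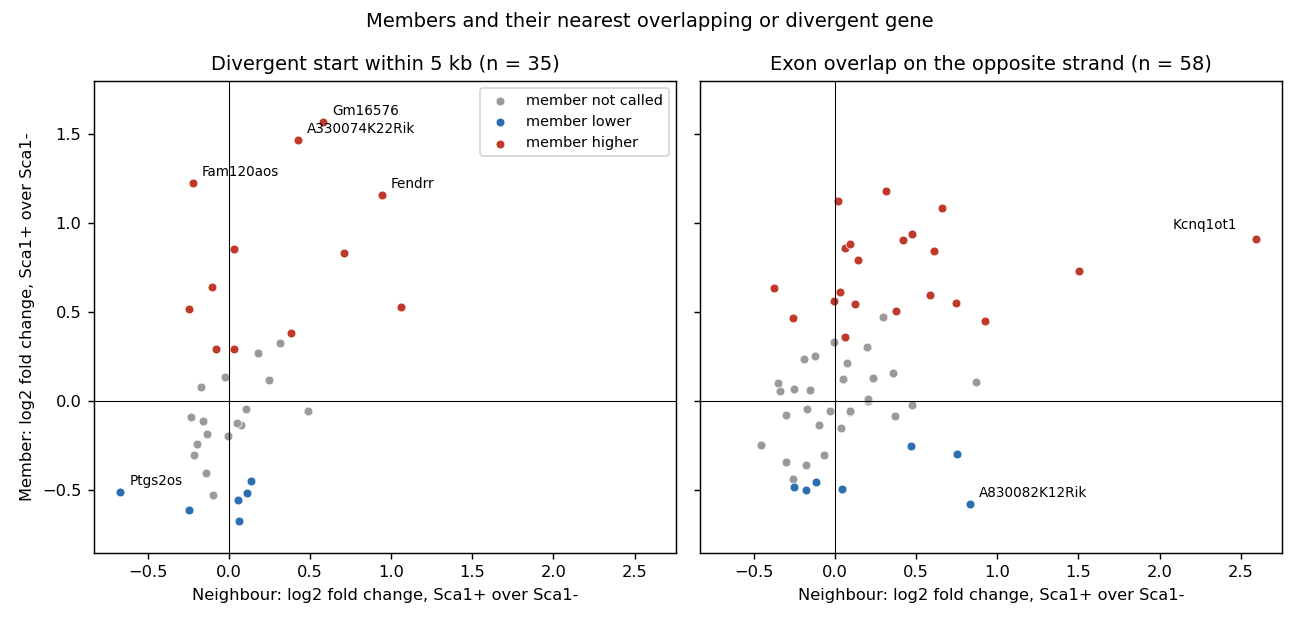
Log2 fold change of 4T1-Sca1+ over 4T1-Sca1- for the neighbour (horizontal) and the member (vertical), one point per pair, colored by the member's edgeR call, for 35 divergent pairs (left) and 58 pairs that overlap on opposite strands (right). Points in the lower left and upper right moved the same way, as Fendrr and Ptgs2os did with their neighbours, while Fam120aos and A830082K12Rik moved against theirs.

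Members with and without an overlapping gene were both more often higher than lower. Of 62 members with exons antisense to a counted gene, 21 (33.9%) were higher and 8 (12.9%) lower (median 0.12). Of the 101 without, 42 (41.6%) were higher and 17 (16.8%) lower (median 0.21). All tested genes had 31.3% higher and 30.2% lower. For 60 members, no counted protein-coding gene was antisense to their exons and no protein-coding start lay within 5 kb. Of these 60, 27 were higher and 10 lower, with a median of 0.24. Noncoding neighbours and overlaps on the same strand were not excluded for them. On the same strand, 16 members overlapped exons of another counted gene. By sequence, 93 of the 163 had no 50-base word in common with transcripts of genes elsewhere, and 4 had more than 20% of them in common: 2900097C17Rik, 9330159M07Rik, C4a and A930015D03Rik. Of these C4a, a complement pseudogene in RefSeq that shares its words with C4b, was called higher (0.64 ± 0.25, edgeR adjusted p 0.0319) and is uncertain to that extent, and it too reached the level limit in 4T1-Sca1+ cells only.

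By class, lincRNAs had 20 higher and 7 lower of 47 (42.6% and 14.9%, median 0.27). Antisense RNAs had 15 and 4 of 38 (39.5% and 10.5%, median 0.12). Processed_transcript genes had 24 and 11 of 65 (36.9% and 16.9%, median 0.13). Bidirectional promoter RNAs had 3 and 3 of 12 (25.0% each, median -0.18). Of all tested genes, 31.3% were called higher and 30.2% lower. RefSeq places 146 of the 163 among long noncoding RNAs, of which 56 were higher and 23 lower. It lists 13 as coding genes, among them Cct6a, Ifi30, Ptpmt1, Trerf1 and Zswim6, of which 5 were higher and 2 lower, and 3 as transcribed pseudogenes. Tmem250-ps, one that RefSeq holds to be coding, had the smallest adjusted p among the higher ones, with 713 ± 89.2 in 4T1-Sca1+ and 435 ± 20.9 in 4T1-Sca1- cells (0.72 ± 0.077, edgeR adjusted p 3.42e-07); it and the genes named in this paragraph without being on a list were picked after their values were seen.

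The members were unevenly called along the genome, as were all genes. On chromosome 2, 12 of 15 members were higher and 2 lower, and 44.3% of all tested genes there were called higher. On chromosome 5, 1 of 16 members was higher and 5 were lower, against 26.4% and 36.5% of all tested genes of that chromosome. The 5 lower members of chromosome 5, Cct6a, 4933404O12Rik, D5Ertd605e, 8430423G03Rik and 5930430L01Rik, are the 5 with the highest coordinates there. Transcripts of higher members had a median GC content of 52.4%, those of lower members 48.0% and those of uncalled members 48.3%, and 50.9% over all tested genes.

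The 115 members that no part of the naming rule reached had a median normalized count of 49.7. Of these, 40 were higher, at log2 fold changes of 0.24 to 0.91, and 9 lower, at -0.49 to -0.25. They included Bvht, or Braveheart, known from heart development, with 47.8 ± 6.32 in 4T1-Sca1+ and 28.02 ± 5.93 in 4T1-Sca1- cells (0.78 ± 0.18, edgeR adjusted p 0.00118). Others were Platr22, named for its association with pluripotent cells (0.78 ± 0.22, edgeR adjusted p 0.00556), and Gm14207 (0.45 ± 0.17), which overlaps the Notch ligand gene Dll4 (0.92 ± 0.060) on the opposite strand. These were also chosen after their values were seen.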

How the data were processed

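RNA of 4 4T1-Sca1+ and 4 4T1-Sca1- samples was made into libraries with a TruSeq RNA kit, which selects polyadenylated RNA and does not mark strand, and sequenced on a NextSeq instrument. The submitters' processing notes name cutadapt 1.16, STAR 2.5.3a and the builds GRCm38 and mm10; the counting tool, its annotation and its use of strand are not given in the sources used here. The authors deposited raw counts per Ensembl gene, and a second table of normalized signal, which holds those counts divided by 1 size factor per library. Values printed per library are this deposited signal, called normalized counts.

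Classes, positions and exon lengths came from GENCODE mouse release M21 (GRCm38), in which 16202 of the 16341 genes were found and 139 were not; transcribed sequences came from RefSeq. Counts were tested with edgeR 4.0.16 in R 4.3.3: filterByExpr, TMM scaling, glmQLFit and glmQLFTest, two-sided, no covariate, Benjamini-Hochberg adjustment over 11717 tested genes. 4624 genes were not tested. The SE of a log2 fold change is its size divided by the root of the F statistic. The fit was tested on simulated data. Totals of 13561804 to 16968215 counts limit precision for members near the level limit.

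Members named were the 10 highest and 10 lowest log2 fold changes among called members, the 10 highest counts per kilobase of exon, and members on 4 lists of noncoding RNAs (small RNA hosts, abundant RNAs with described roles, imprinted RNAs, developmental and inflammatory RNAs). Lists of snoRNP, paraspeckle, nonsense-mediated decay, nuclear decay and microRNA processing genes and of epithelial, leukocyte, fibroblast and endothelial markers were written from general knowledge. The members and lists were chosen with earlier results of these data known. Alternatives were DESeq2 size factors, upper-quartile scaling, testing unfiltered genes, a minimum of 10 counts per library, tests by DESeq2 1.42.0 and limma-voom (limma 3.58.1), limma on log2 of the deposited signal plus 1, a replicate block, GC-corrected offsets, an adjusted p under 0.01, a log2 fold change of at least 1, other level limits and classes, members without overlaps, and each library left out. Library totals alone, RefSeq noncoding members and members that host no snoRNA were added after seeing the data.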

Additional observations from a re-analysis of the deposited data

Results flagged for a closer look

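A library was far from the other 3 of its group in 10 of the 96 groups of 4 tested, by a gap above Dixon's 95% critical value for 4 samples, where chance gives about 1 in 20, or 4.8. In 4T1-Sca1+ replicate 3, 9330151L19Rik had a normalized count of 82.8 against 58.2 to 61.3 in the others, Snhg20 had a normalized count of 277 against 167 to 169 in the others, Snhg1 had a normalized count of 695 against 912 to 952 in the others and Snhg5 had a normalized count of 776 against 915 to 935 in the others. In 4T1-Sca1- replicate 4, 9330151L19Rik had a normalized count of 37.7 against 27.7 to 28.7 in the others and Peg13 had a normalized count of 300.2 against 342 to 350.1 in the others. In 4T1-Sca1+ replicate 4, 1810032O08Rik had a normalized count of 350.1 against 414 to 425 in the others. In 4T1-Sca1- replicate 3, 1810032O08Rik had a normalized count of 551 against 477 to 484 in the others. In 4T1-Sca1- replicate 2, Dancr had a normalized count of 50.3 against 68.5 to 71.6 in the others. In 4T1-Sca1- replicate 1, 1810026B05Rik had a normalized count of 125 against 87.9 to 93.6 in the others. The 4 values for 4T1-Sca1+ replicate 3 go with its higher chi-square against its group, and each of those 4 members was called with and without that library.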

How the results depend on the processing

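Over other scalings, filters, tests and the libraries left out in turn, the members stayed more often higher than lower. With a library left out, 55 to 63 members were higher and 21 to 27 lower, with medians of 0.12 to 0.18. A 2-fold minimum on called members left 9 higher and 1 lower, and 612 and 103 of all genes. Fewer members were counted with a mean of at least 50 (36 higher of 92) and with no exon overlap on either strand (37 higher and 16 lower of 87), and without those that overlap on the opposite strand the median was 0.21. DESeq2 lost 12 of the 88 calls and gained 0, and GC-corrected offsets lost 5 and gained 14. Gas5 changed sign with GC-corrected offsets (0.039, adjusted p 0.462), and the cause was not tested. Scaling moved the median of all genes to at most 0.05.

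The replicate numbers did not pair the libraries: deviations of same-numbered libraries correlated at 0.0957, -0.15, -0.0339 and -0.00107. With the replicate number as a block, 64 members were higher and 26 lower, all 88 calls were kept and 2 were gained, and the median was 0.14.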
